A study of Mus musculus with 11 samples.

Results

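Of the Notch pathway, 10 genes were followed in mouse granulosa cells before and 48 h after equine chorionic gonadotropin (eCG), in RNA and in the histone mark H3K4me3. They were taken by name as 3 receptors (Notch1, Notch2, Notch3), 2 ligands (Jag1, Jag2) and 5 genes that Notch signalling is known to switch on (Hes1, Hey1, Hey2, Heyl, Nrarp). The RNA table lists these 10 genes among 24809 gene IDs, of which 14401 were tested, and the H3K4me3 table lists them among 24541 IDs, of which 24476 were tested. All 10 passed the filter on low counts in both tables.

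Granulosa cells surround the oocyte and form the wall of the ovarian follicle. The mice were C57BL/6 and carried no labelled genetic change. They were either untreated (0 h) or given eCG, a hormone with FSH-like activity that the labels also call FSH, and sampled 48 h later. RNA came from 3 libraries at 0 h and 3 at 48 h, from cells obtained by puncturing follicles of animals labelled as postnatal day 21. H3K4me3 chromatin immunoprecipitation came from 2 libraries at 0 h and 2 at 48 h, whose labels give no age and no way of isolating the cells. The study describes the libraries as biological replicates but does not say how many animals each holds. There was no untreated group at 48 h, so the hormone and the passing of 48 h cannot be told apart. An input library of the chromatin series was not analysed here.

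Notch receptors are cell-surface proteins activated by ligands on a neighbouring cell. Ligand binding exposes the receptor to cleavage by ADAM proteases and then gamma-secretase, and the freed intracellular domain enters the nucleus and turns the DNA-binding protein RBPJ from a repressor into an activator. HES and HEY proteins, the classical targets, are basic helix-loop-helix repressors, and NRARP binds the active complex and limits it. In the ovary, Jagged ligands of oocytes and Notch receptors of granulosa cells are known for their part in forming and growing follicles. NOTCH1, NOTCH4 and DLL4 are also well known in endothelial cells, and NOTCH3 in the mural cells of blood vessels.

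In the RNA libraries, 12 granulosa markers, among them Foxl2, Fshr, Amh and Inha, were all detected, and their summed level was 18179 to 23377 CPM (counts per 1000000 counts, scaled between libraries by TMM) at 0 h and 44358 to 46260 CPM at 48 h. Total counts per library were 12013849 to 26343971 in RNA and 11989769 to 17968033 in H3K4me3. A gene was called when its edgeR quasi-likelihood p, adjusted by Benjamini-Hochberg over all genes tested, was under 0.05. Of the 12 granulosa markers, 8 were called higher at 48 h, 2 lower and 2 not called. Over all genes tested, 16.0% were called higher and 15.8% lower. Amh was among the lower, from a mean of 901 to 346 CPM (edgeR adjusted p = 0.0158), while Inha alone went from 8181 to 16849 CPM. With library size alone as the scale, the share of RNA calls that were higher at 48 h went from 50.2% to 26.8% and the median of all genes from -0.03 to -0.20 log2, and in H3K4me3 that share went from 75.4% to 52.3%. The RNA library 48 h replicate 1 stood apart. Its summed endothelial markers were 684 CPM, against 216 and 268 CPM in the other 48 h libraries and 118 to 123 CPM at 0 h, and it also held the most mural (604 CPM) and theca (3239 CPM) marker RNA of the 6 libraries. In whole preparations of this kind, fewer cells of a type and less RNA per cell cannot be told apart.

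Of the 10 Notch genes, RNA was higher at 48 h for 3 (Notch1, Notch3 and Nrarp), lower for 3 (Hes1, Hey1 and Heyl), and not called for 4 (Notch2, Jag1, Jag2 and Hey2). Over all genes tested, 16.0% were called higher, 15.8% lower and 31.8% in either direction. The 3 libraries at 48 h did not overlap the 3 at 0 h for the 6 called genes, and non-overlapping groups occurred in 47.9% of all genes tested. The median log2 fold change of the 10 genes was 0.03, beside -0.03 for all genes tested.

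**Figure D1:**
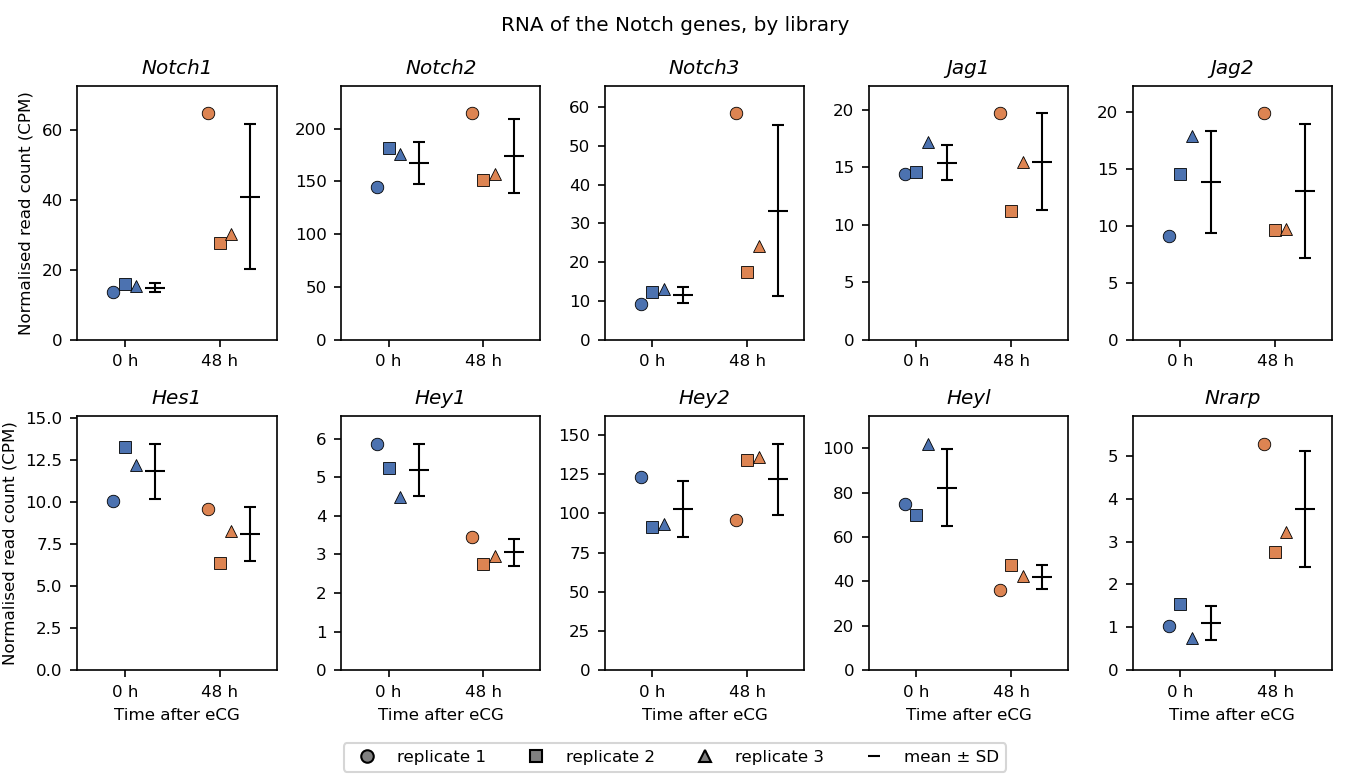
RNA level of each Notch gene by library. The y axis is TMM-scaled CPM on a linear scale set for each gene. Points are libraries at 0 h and 48 h (n = 3 each), and bars are group means ± SD. Notch1, Notch3 and Nrarp lie higher in all 48 h libraries than in any 0 h library, and Hes1, Hey1 and Heyl lie lower.

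Among the receptors, Notch1 and Notch3 rose while Notch2 was not called. Notch1 (gene ID 18128, chr2:26457902-26503822, GRCm38.p6, as for the other spans here) encodes a receptor of broad use. Its RNA was 13.6, 15.9 and 15.3 CPM in the 0 h libraries and 64.7, 27.6 and 30.3 CPM in the 48 h libraries. All 48 h values lay above all 0 h values, and 48 h replicate 1 was far above the other 48 h libraries. The mean went from 14.9 ± 1.20 to 40.9 ± 20.7 CPM (SD, n = 3), a log2 fold change of 1.44 ± 0.30 (SE; edgeR adjusted p = 0.00751). Without 48 h replicate 1 the log2 fold change was 0.95 (edgeR adjusted p = 7.09e-04), and the call held in all 11 alternative settings, with adjusted p up to 0.0307.

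Notch3 (ID 18131, chr17:32120820-32166896) encodes a receptor of narrower use. Its RNA was 9.32, 12.3 and 13.0 CPM at 0 h and 58.4, 17.4 and 24.1 CPM at 48 h. The groups did not overlap, and 48 h replicate 1 was again the highest library. The mean went from 11.5 ± 1.96 to 33.3 ± 22.0 CPM (SD, n = 3), a log2 fold change of 1.51 ± 0.40 (SE; edgeR adjusted p = 0.0216). This call depended on the libraries used. Without 48 h replicate 1 the log2 fold change was 0.82 (edgeR adjusted p = 0.0118), while without 0 h replicate 1, 2 or 3 it was no longer called (edgeR adjusted p = 0.0720, 0.0552 and 0.0573).

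Notch2 (ID 18129, chr3:98013538-98150367), a receptor long known from granulosa cells, was at 145, 181 and 175 CPM at 0 h and 215, 151 and 157 CPM at 48 h. The groups overlapped, and only 48 h replicate 1 lay above the 0 h range. The log2 fold change was 0.06 ± 0.15 (SE, n = 3; edgeR adjusted p = 0.800). Counts of a gene also scale with its length, and no transcript lengths were used here, so levels are compared between times and not between genes.

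The ligands were not called. Jag1 (ID 16449, chr2:137081451-137116520), a Jagged ligand, was at 14.5, 14.6 and 17.2 CPM at 0 h and 19.7, 11.2 and 15.5 CPM at 48 h, and the 48 h libraries lay on both sides of the 0 h range. Its log2 fold change was -0.01 ± 0.20 (SE, n = 3; edgeR adjusted p = 0.984). Jag2 (ID 16450, chr12:112907803-112929812), its paralogue, was at 9.07, 14.5 and 17.9 CPM at 0 h and 19.9, 9.60 and 9.67 CPM at 48 h. For Jag2 the SD within each time (4.45 and 5.90 CPM) was wider than the distance between the means, with a log2 fold change of -0.10 ± 0.33 (SE, n = 3; edgeR adjusted p = 0.845). For both ligands 48 h replicate 1 was the highest of the 6 libraries.

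The targets moved in different directions. Nrarp (ID 67122, chr2:25180758-25183339), the feedback inhibitor, was at 1.03, 1.53 and 0.739 CPM at 0 h and 5.29, 2.76 and 3.22 CPM at 48 h. These levels rest on 14 to 31 counts per library at 0 h and 37 to 69 at 48 h, and the groups did not overlap. The mean went from 1.10 ± 0.401 to 3.76 ± 1.35 CPM (SD, n = 3), a log2 fold change of 1.75 ± 0.37 (SE; edgeR adjusted p = 0.00832). It was called in all 11 alternative settings, with adjusted p up to 0.0360.

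Heyl (ID 56198, chr4:123233556-123249870), a HEY-family repressor, fell. Its RNA was 74.8, 69.7 and 102 CPM at 0 h and 36.3, 47.2 and 42.4 CPM at 48 h. Every 48 h library lay well below every 0 h library, and 48 h replicate 1 was the lowest. The mean fell from 82.2 ± 17.4 to 41.9 ± 5.46 CPM (SD, n = 3), a log2 fold change of -0.97 ± 0.16 (SE; edgeR adjusted p = 0.00268). The call held in all 11 alternative settings, with adjusted p up to 0.0132.

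Hey1 (ID 15213, chr3:8663359-8667038), its relative, was at 5.85, 5.24 and 4.49 CPM at 0 h and 3.45, 2.76 and 2.96 CPM at 48 h. The groups did not overlap. On average Hey1 went from 5.19 ± 0.684 to 3.06 ± 0.355 CPM (SD, n = 3), a log2 fold change of -0.77 ± 0.21 (SE; edgeR adjusted p = 0.0242). The call ended without 0 h replicate 1 or 2, or without 48 h replicate 2 or 3 (edgeR adjusted p = 0.0598, 0.0641, 0.103 and 0.0909).

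Hes1 (ID 15205, chr16:30065357-30067796), the best known target, was at 10.03, 13.2 and 12.2 CPM at 0 h and 9.58, 6.36 and 8.27 CPM at 48 h. The highest 48 h library came close to the lowest 0 h library without reaching it. On average Hes1 went from 11.8 ± 1.64 to 8.07 ± 1.62 CPM (SD, n = 3), a log2 fold change of -0.56 ± 0.19 (SE; edgeR adjusted p = 0.0486). This was the least secure of the 6 calls. It ended without 0 h replicate 2 or 3, or without 48 h replicate 2 or 3 (edgeR adjusted p = 0.159, 0.137, 0.186 and 0.134), with DESeq2 size factors in edgeR (adjusted p = 0.0623) and in DESeq2 (adjusted p = 0.0561).

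Hey2 (ID 15214, chr10:30832359-30842783), the other HEY repressor, was at 124, 91.3 and 93.4 CPM at 0 h and 95.8, 134 and 136 CPM at 48 h. The groups overlapped through 1 library at each time. The log2 fold change was 0.25 ± 0.16 (SE, n = 3; edgeR adjusted p = 0.269). Without 48 h replicate 1 it was called higher, at 0.40 (edgeR adjusted p = 0.0428), over a range of adjusted p of 0.0428 to 0.692 among the alternatives. Leaving out 1 library gave 3 to 7 calls among the 10 genes, the lowest of them without 0 h replicate 2.

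Markers of other cells were read in the same RNA libraries. Of 12 endothelial markers, 10 rose in RNA (all but Robo4 and Vwf), with a median log2 fold change of 1.72, and none was at 0 counts over the libraries. Leaving out 0 h replicate 1, or 0 h replicate 2, lowered that count to 6, and leaving out 48 h replicate 1 left it at 10. Relative to the 0 h mean, the summed endothelial level was 2.51, 0.85 and 1.16 log2 units higher in 48 h replicates 1, 2 and 3. Over the same libraries Notch1 was 2.12, 0.89 and 1.02 units higher, Notch3 2.34, 0.59 and 1.06, and Nrarp 2.27, 1.33 and 1.55. The 3 Notch genes that rose and the endothelial sum thus had the same order of the 48 h libraries. That order was not particular to them. Notch2, Jag1 and Jag2, which were not called, had it too, as did the mural, immune and oocyte sums. Hey2 and the granulosa, theca, surface epithelium and red cell sums had other orders. The part of endothelial RNA in these 3 rises was not tested.

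Of the genes that fell, Hes1 and Hey1 had the same order as the endothelial sum over the 48 h libraries, and Heyl had the reverse order. That reverse order was also the order of the granulosa sum. All 48 h values of Hes1, Hey1 and Heyl lay below the 0 h mean. Relative to the 0 h mean, Heyl was at -1.18, -0.80 and -0.95 log2 units in 48 h replicates 1, 2 and 3, Hey1 at -0.59, -0.91 and -0.81, and Hes1 at -0.30, -0.89 and -0.51. Oocyte markers fell in 5 of 11 tested, from a summed 176 to 199 CPM at 0 h to 58.1 to 134 CPM at 48 h, at -0.50, -1.71 and -1.61 log2 units in the 3 libraries. Of 10 mural markers 2 rose (Rgs5 and Mcam), and their sum was at 0.78, -0.54 and -0.23 log2 units. Of 11 theca markers 2 rose and 3 fell, and their sum was at 1.0, -0.22 and -0.35 log2 units. Of 9 surface epithelium markers 1 fell. Red cell markers rose in both of the 2 tested (Slc4a1 and Alas2), from a summed 67.8 to 129 CPM to 163 to 677 CPM, while the 4 globin genes were at 0 counts in every RNA library. Immune markers overlapped, at a summed 210 to 343 CPM at 0 h and 173 to 302 CPM at 48 h. The part of these cells in the falls was not tested.

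**Figure D2:**
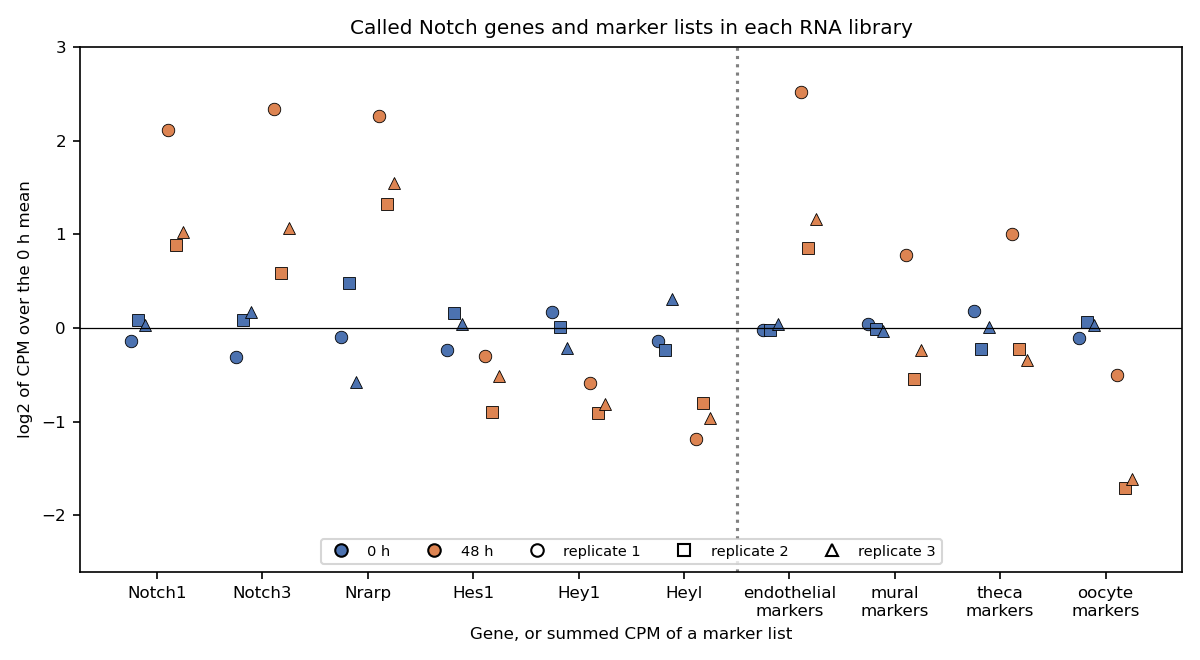
Level of the 6 called Notch genes and of marker sums in each RNA library. The y axis is log2 of the TMM-scaled level over the mean of the 0 h libraries, and each point is 1 library. In 48 h replicate 1 Notch1 (2.12), Notch3 (2.34), Nrarp (2.27) and the endothelial sum (2.51) are all highest, while Heyl is lowest there (-1.18).

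H3K4me3, trimethylation of lysine on histone H3, marks active and poised gene starts. The deposited table gives 1 count per gene, and the sources used here do not give the window counted around each gene. As a background, 5129 gene IDs with no RNA count in any library had a median H3K4me3 level of 1.56 CPM and a 95th percentile of 17.5 CPM, while RNA-tested genes had a median of 60.8 CPM. Averaged over the 4 libraries, 7 of the 10 Notch genes lay above that percentile. Notch3, Jag2 and Nrarp lay below it. The share of all genes above it was not counted.

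Of the 10 Notch genes, 3 (Notch1, Jag2 and Nrarp) were called higher in H3K4me3 at 48 h and the other 7 were not called, beside 6.35% of all genes called higher, 2.08% lower and 8.42% in either direction. The median log2 fold change of the 10 genes was 0.12, beside -0.00 for all genes tested. With 2 libraries a time, the errors below draw on the spread shared across genes.

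Notch1 had an H3K4me3 level of 36.1 and 27.8 CPM in the 0 h libraries and 46.4 and 50.8 CPM in the 48 h libraries. Both 48 h libraries lay above both 0 h libraries. The mean went from 31.95 ± 5.92 to 48.6 ± 3.08 CPM (SD, n = 2), a log2 fold change of 0.59 ± 0.09 (SE; edgeR adjusted p = 4.06e-06). The call held in all 9 alternative settings, with adjusted p up to 0.00530. The neighbouring long non-coding gene Gm35978 had nearly the same summed count (2580, against 2578 for Notch1) and no RNA count, so the mark at Notch1 and at this neighbour cannot be told apart.

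Nrarp was at 11 and 11.6 CPM of H3K4me3 at 0 h and 16.3 and 17.4 CPM at 48 h, again without overlap. Its mean went from 11.3 ± 0.449 to 16.9 ± 0.764 CPM (SD, n = 2), a log2 fold change of 0.58 ± 0.13 (SE; edgeR adjusted p = 0.00247). Without 0 h replicate 1 it was 0.52 and no longer called (edgeR adjusted p = 0.306). Jag2 was at 13.4 and 11.3 CPM of H3K4me3 at 0 h and 17.5 and 16.3 CPM at 48 h. Its mean went from 12.3 ± 1.46 to 16.9 ± 0.878 CPM (SD, n = 2), a log2 fold change of 0.44 ± 0.13 (SE; edgeR adjusted p = 0.0230). The Jag2 call ended when 0 h replicate 1 or 2, or 48 h replicate 1, was left out (edgeR adjusted p = 0.250, 0.264 and 0.124), and also in DESeq2 (adjusted p = 0.149). Both genes sat at low levels of the mark, under the 95th percentile of RNA-silent genes.

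The other receptors and Jag1 were not called. Notch2 was at 59.6 and 64.3 CPM of H3K4me3 at 0 h and 69.3 and 66.1 CPM at 48 h (log2 fold change 0.13 ± 0.07, SE, n = 2; edgeR adjusted p = 0.314). Notch3 was at 17.0 and 13.7 CPM at 0 h and 16.9 and 20.9 CPM at 48 h, which overlapped (0.29 ± 0.13, SE, n = 2; edgeR adjusted p = 0.163). Without 48 h replicate 1 Notch3 was called higher, at 0.42 (edgeR adjusted p = 0.0225), over a range of 0.0225 to 0.700 among the alternatives. Jag1 was at 80.9 and 74.1 CPM at 0 h and 82.3 and 82.4 CPM at 48 h (0.08 ± 0.07, SE, n = 2; edgeR adjusted p = 0.555).

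The targets whose RNA fell had no call in H3K4me3. Hes1 was at 93.8 and 95.9 CPM of the mark at 0 h and 101 and 102 CPM at 48 h (log2 fold change 0.10 ± 0.07, SE, n = 2; edgeR adjusted p = 0.442). Hey1 was at 80.7 and 82.7 CPM at 0 h and 85.6 and 82.9 CPM at 48 h (0.04 ± 0.07, SE, n = 2; edgeR adjusted p = 0.788). For both repressors the 48 h values were at or just above those of 0 h. Heyl was at 30.4 and 34.7 CPM at 0 h and 26.3 and 31.1 CPM at 48 h, which overlapped (-0.17 ± 0.09, SE, n = 2; edgeR adjusted p = 0.292). Without 48 h replicate 2 Heyl was called lower, at -0.30 (edgeR adjusted p = 0.0303), over a range of 0.0303 to 0.835 among the alternatives. Hey2 was at 186 and 184 CPM at 0 h and 187 and 205 CPM at 48 h (0.08 ± 0.07, SE, n = 2; edgeR adjusted p = 0.528). Leaving out 1 library gave 1 to 4 calls among the 10 genes, and the count of 1 came without 0 h replicate 1.

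**Figure D3:**
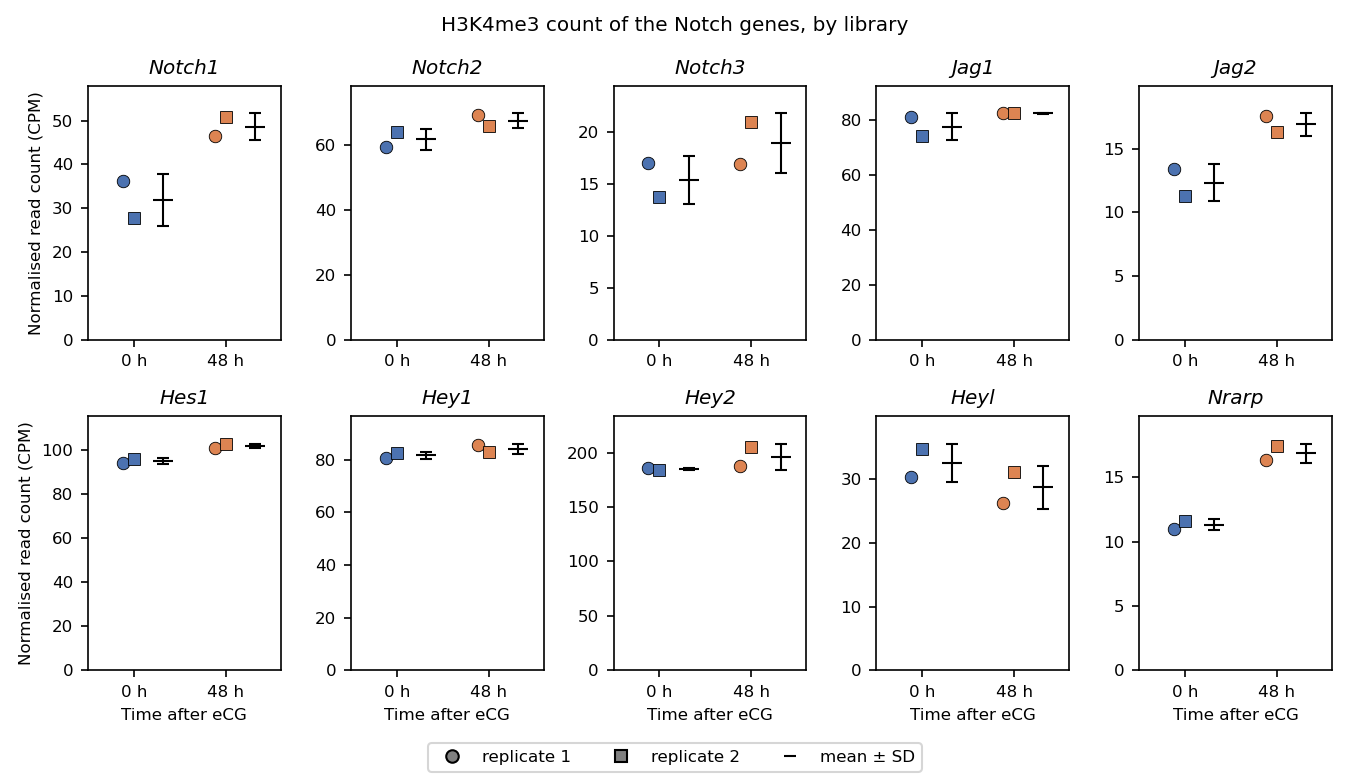
H3K4me3 level of each Notch gene by library. The y axis is TMM-scaled CPM on a linear scale set for each gene. Points are libraries at 0 h and 48 h (n = 2 each), and bars are group means ± SD. Notch1, Jag2 and Nrarp are higher at 48 h, while Hes1 (log2 fold change 0.10), Hey1 (0.04) and Hey2 (0.08) were not called.

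Set side by side, the assays called 2 genes in the same direction, Notch1 and Nrarp, both higher. The share of all genes called in the same direction in both assays was not counted. Of the others, Notch3 was called higher in RNA only, Jag2 higher in H3K4me3 only, and Hes1, Hey1 and Heyl lower in RNA only, while Notch2, Jag1 and Hey2 were called in neither. A call in one assay and none in the other does not show that the assays differ, and that difference was not tested. The RNA and H3K4me3 libraries are separate samples. The 12 endothelial markers had no edgeR call in H3K4me3, with 0 at an unadjusted p under 0.05 and 0 in DESeq2, and their summed mark was 79.6 to 92.4 CPM at 0 h and 89.7 to 91.6 CPM at 48 h. Only Kdr and Esam lay above the 95th percentile of RNA-silent genes and the other 10 lay below it, so the lack of a call says little about most of these markers.

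**Figure D4:**
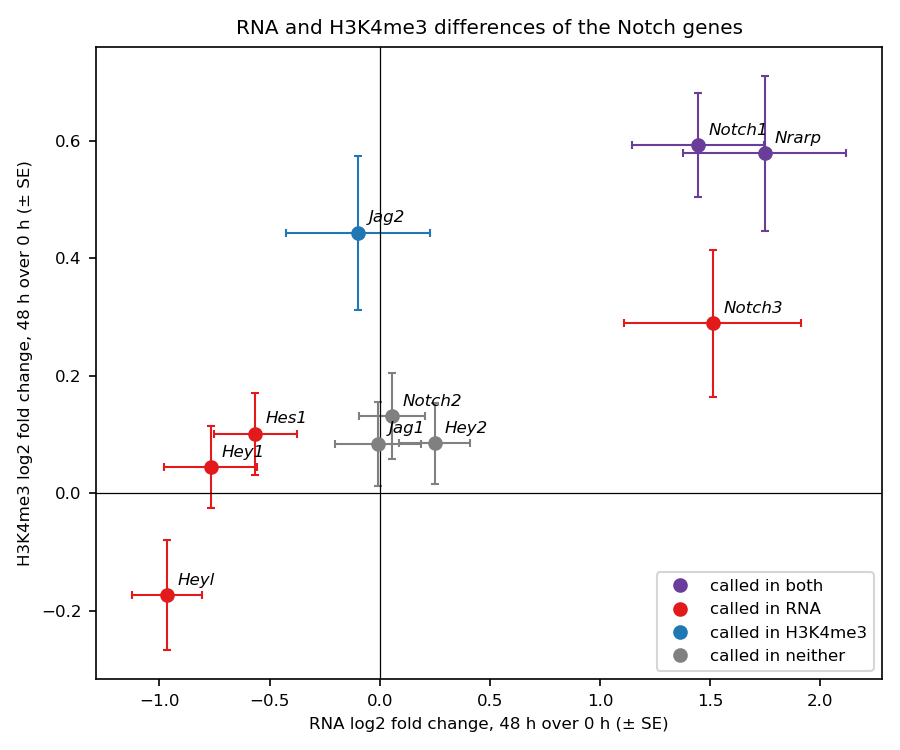
RNA against H3K4me3 response of the 10 Notch genes. The x axis is the RNA and the y axis the H3K4me3 log2 fold change, 48 h over 0 h, with SE bars. Notch1 (1.44 in RNA, 0.59 in H3K4me3) and Nrarp (1.75, 0.58) lie to the upper right, and Heyl (-0.97, -0.17) lies farthest left and lowest.

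The sequence upstream of the start was read from RefSeq (GRCm38.p6) for the 7 members its promoter table holds, as the 250 bases before the start that table uses. That start is the end of the gene span given above for 5 of the 7, but lies 6 bases inside it for Notch3 and 317 bases inside it for Jag2, so that 250 bases of Jag2 fall within its own gene span. Those of Hes1, Hey1 and Heyl were not matched. All 7 were rich in G and C, at 57.2% to 87.2% with 16 to 54 CpG, beside medians of 52.4% and 6 over 32851 promoters. The 3 printed below are those of Notch1 and Nrarp, called in both assays, and of Hey2, which holds the RBPJ core, written 5′ to 3′ on the gene's strand. Capitals mark matches, on either strand, to GTGGGAA (the core bound by RBPJ), CACGTG (an E-box bound by HEY proteins), CACNAG (the N-box bound by HES proteins) or TGACGTCA (the cAMP response element).
Notch1 (chr2:26503823-26504072, minus strand): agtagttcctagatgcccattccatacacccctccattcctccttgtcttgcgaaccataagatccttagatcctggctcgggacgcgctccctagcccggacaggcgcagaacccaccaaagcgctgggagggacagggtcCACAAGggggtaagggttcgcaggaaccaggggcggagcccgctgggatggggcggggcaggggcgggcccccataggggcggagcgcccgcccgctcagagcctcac
Nrarp (chr2:25180508-25180757, plus strand): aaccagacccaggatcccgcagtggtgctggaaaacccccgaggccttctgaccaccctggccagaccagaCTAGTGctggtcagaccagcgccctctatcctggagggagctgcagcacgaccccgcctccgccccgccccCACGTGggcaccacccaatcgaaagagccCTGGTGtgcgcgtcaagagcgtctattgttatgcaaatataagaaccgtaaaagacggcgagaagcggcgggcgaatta
Hey2 (chr10:30842784-30843033, minus strand): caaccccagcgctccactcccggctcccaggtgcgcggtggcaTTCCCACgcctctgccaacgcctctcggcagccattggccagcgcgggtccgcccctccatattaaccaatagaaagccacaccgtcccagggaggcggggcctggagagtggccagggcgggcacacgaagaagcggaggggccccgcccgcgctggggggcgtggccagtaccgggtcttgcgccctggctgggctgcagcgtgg
The RBPJ core occurred in 1 of the 7 promoters, that of Hey2, where it reads TTCCCAC on the printed strand, 207 to 201 bases before the start, and in 5.42% of all promoters. The E-box occurred in 1, that of Nrarp, 108 to 103 bases before the start, and in 6.02% of all. The N-box occurred in 4 (Notch1, Notch2, Notch3 and Nrarp) and in 36.7% of all. The cAMP response element occurred in 0 of the 7 and in 1.55% of all. No 2 matches overlapped in these 7. A match describes the letters in this window and not a bound site.

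The rest of the pathway was described from 66 other genes in 6 lists by role, of which 61 were tested in RNA. Of these, 14 rose, 9 fell and 38 were not called, so that 37.7% were called, beside 31.8% of all genes tested (16.0% higher and 15.8% lower), and their median log2 fold change was -0.02, beside -0.03. Dll3, Hes2, Hes3, Hes5 and Helt did not pass the filter on low counts.

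The other receptors and ligands split. Notch4, a receptor known from endothelium, was at 2.83, 1.98 and 2.85 CPM at 0 h and 23.3, 7.16 and 10.5 CPM at 48 h (log2 fold change 2.41 ± 0.43, SE, n = 3; edgeR adjusted p = 0.00386). Dll4, a Delta ligand of endothelial tip cells, was at 1.67, 2.17 and 1.69 CPM at 0 h and 9.97, 3.04 and 5.05 CPM at 48 h (1.68 ± 0.42, SE, n = 3; edgeR adjusted p = 0.0166). In both, 48 h replicate 1 was the highest library, as for the endothelial sum, whose part was not tested. The Dll4 call ended without 0 h replicate 1 or 3 (edgeR adjusted p = 0.0523 and 0.0621), while Notch4 was called in all 11 alternative settings. Without 48 h replicate 1 the log2 fold change was 1.78 for Notch4 and 1.10 for Dll4 (edgeR adjusted p = 0.00178 and 0.0289). Dlk1, a non-canonical ligand lacking the Delta motif, fell from 7.77 ± 0.408 to 3.25 ± 1.44 CPM (SD, n = 3; log2 fold change -1.27 ± 0.28, SE; edgeR adjusted p = 0.0102), a call that ended without 48 h replicate 2 (edgeR adjusted p = 0.0511). Its relative Dlk2 fell by 1.42 ± 0.35 on the log2 scale (SE, n = 3; edgeR adjusted p = 0.0149), a call that ended when 0 h replicate 3, or 48 h replicate 2 or 3, was left out (edgeR adjusted p = 0.0709, 0.0593 and 0.0657). Dll1 went from 2.61 ± 0.581 to 4.23 ± 1.58 CPM (SD, n = 3) and was not called (edgeR adjusted p = 0.126).

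Of 8 genes for the sugars added to Notch receptors, 4 rose, 1 fell and 3 were not called. Mfng, a Fringe glycosyltransferase, went from 1.28 ± 0.196 to 3.93 ± 1.11 CPM (SD, n = 3; log2 fold change 1.6 ± 0.31, SE; edgeR adjusted p = 0.00536). Xxylt1, a xylosyltransferase, and Pofut1, the O-fucosyltransferase, rose by 0.78 ± 0.08 and 0.61 ± 0.11 on the log2 scale (SE, n = 3; edgeR adjusted p = 4.54e-04 and 0.00343). Lfng went from 3.69 ± 1.6 to 5.48 ± 1.96 CPM (SD, n = 3) and was not called (edgeR adjusted p = 0.257). Of 10 cleavage genes 4 rose (Aph1a, Aph1b, Ncstn and Psenen) and 6 were not called. The 4 are gamma-secretase subunits, as are most genes of that list. At an unadjusted edgeR p under 0.05, 8 of the 10 were higher. Among these were the proteases Adam10 and Adam17 (edgeR adjusted p = 0.0728 and 0.0841). Aph1a went from 99.4 ± 6.37 to 169 ± 6.96 CPM (SD, n = 3; log2 fold change 0.77 ± 0.08, SE; edgeR adjusted p = 5.81e-04).

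Of 13 genes of ligand endocytosis and receptor turnover, 1 rose, 3 fell and 9 were not called. The falls included 2 of 5 Deltex genes, whose products bind Notch, with Dtx4 at -1.16 ± 0.19 and Dtx3 at -0.86 ± 0.10 log2 units (SE, n = 3; edgeR adjusted p = 0.00267 and 8.06e-04), while Dtx1, Dtx2 and Dtx3l were not called. Of 16 nuclear genes 3 rose, 2 fell and 11 were not called. Rbpj, the DNA-binding partner, went from 102 ± 2.26 to 89.7 ± 15.3 CPM (SD, n = 3; log2 fold change -0.19 ± 0.12, SE; edgeR adjusted p = 0.267). Maml2, a Mastermind coactivator, fell from 20.2 ± 4.08 to 9.82 ± 1.02 CPM (SD, n = 3; log2 fold change -1.04 ± 0.17, SE; edgeR adjusted p = 0.00260). Of 8 further target genes tested, only Myc was called, and it fell from 81.6 ± 22.2 to 36.5 ± 10.1 CPM (SD, n = 3; log2 fold change -1.16 ± 0.23, SE; edgeR adjusted p = 0.00609).

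**Figure D5:**
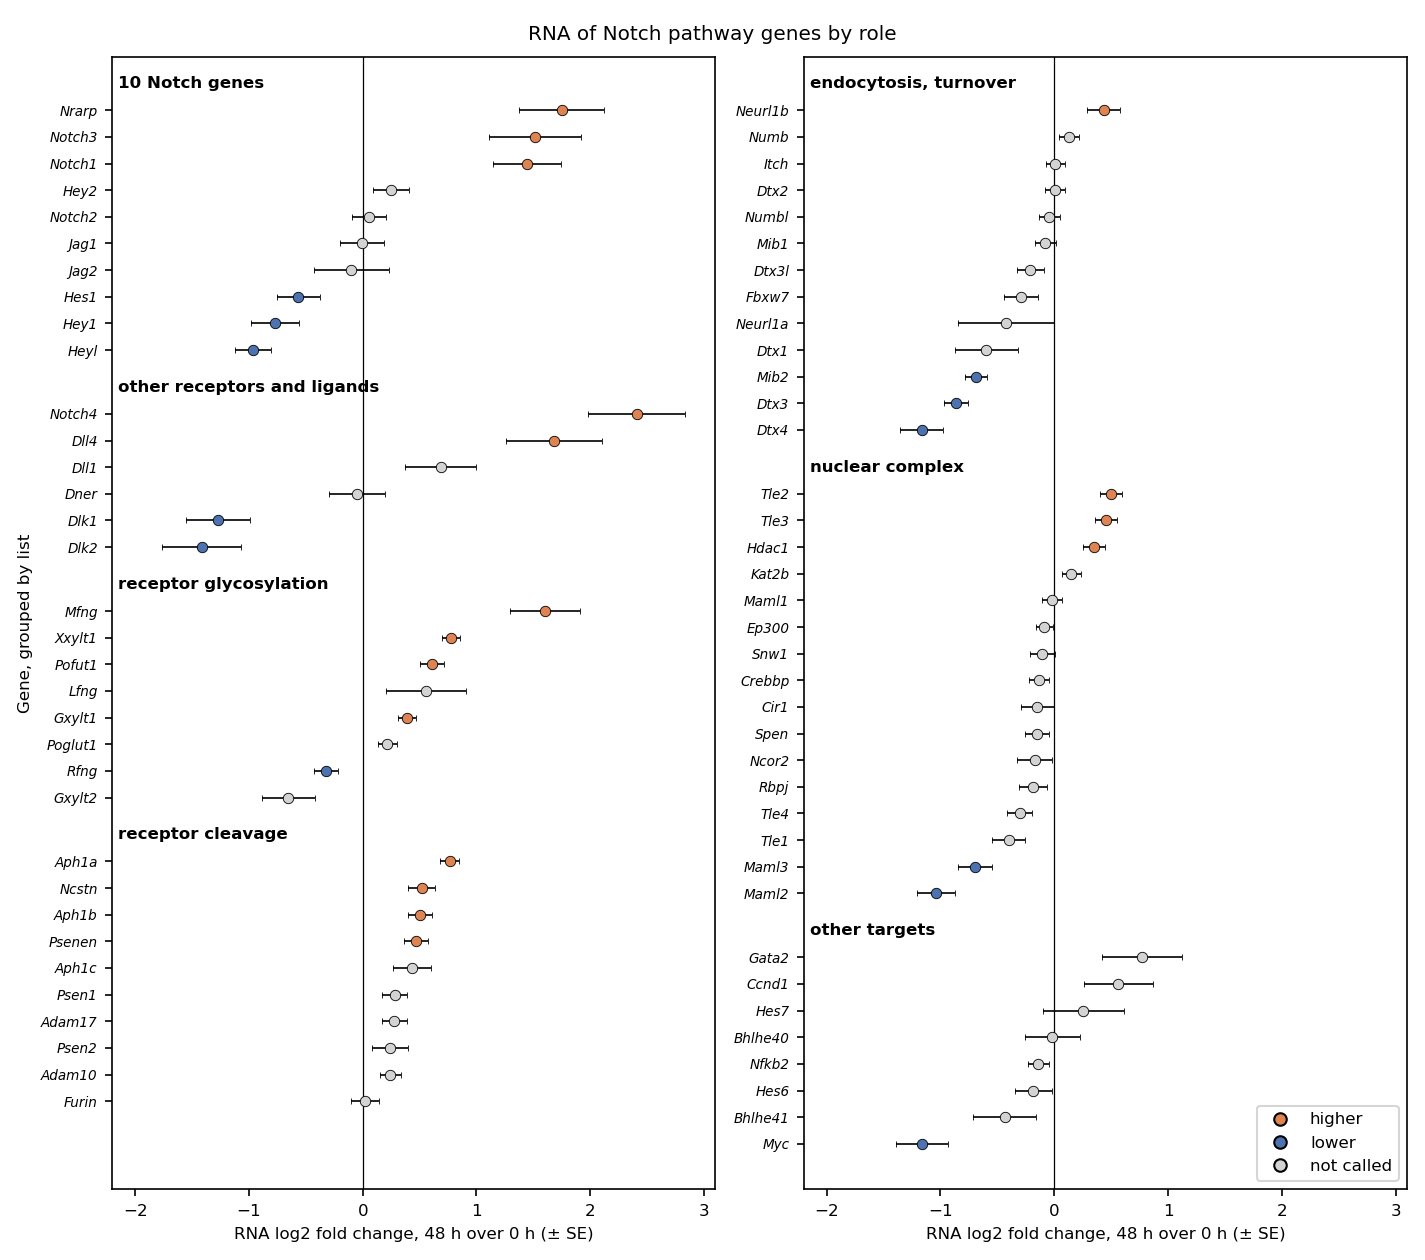
RNA log2 fold change of the tested Notch pathway genes, grouped by role. The x axis is log2 of 48 h over 0 h with SE bars, and the colour of a point gives its call. Notch4 (2.41) lies farthest to the right and Dlk2 (-1.42) farthest to the left.

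In H3K4me3, 10 of the 66 pathway genes were higher, 1 was lower and 55 were not called, so that 16.7% were called, beside 8.42% of all genes (6.35% higher and 2.08% lower), and their median log2 fold change was 0.10. Tle2 and Tle3, Groucho corepressors, had the largest rises, at 0.99 ± 0.09 and 0.58 ± 0.07 (SE, n = 2; edgeR adjusted p = 1.13e-11 and 4.86e-08). Myc was the 1 lower gene and went from 250 ± 12.0 to 180 ± 0.396 CPM of the mark (SD, n = 2; log2 fold change -0.47 ± 0.07, SE; edgeR adjusted p = 1.6e-06), so it was called lower in both assays. Neurl1b, a ubiquitin ligase for Notch ligands, rose by 0.42 ± 0.09 (SE, n = 2; edgeR adjusted p = 0.00108), a call that ended without 0 h replicate 1 (edgeR adjusted p = 0.154). Fbxw7, which targets the intracellular domain for degradation, rose by 0.31 ± 0.07 (SE, n = 2; edgeR adjusted p = 0.00353), a call that ended without 0 h replicate 1 or 48 h replicate 1 (edgeR adjusted p = 0.457 and 0.116). Dner and Furin were called at 0.44 ± 0.13 and 0.31 ± 0.10 (SE, n = 2; edgeR adjusted p = 0.0209 and 0.0463), and both calls ended in DESeq2 (adjusted p = 0.144 and 0.588) and with library size only. Both also ended when 0 h replicate 1, 0 h replicate 2 or 48 h replicate 1 was dropped, for Dner with edgeR adjusted p = 0.247, 0.255 and 0.116 and for Furin with 0.521, 0.159 and 0.953. Furin was at 31.5 and 29.9 CPM at 0 h and 44.9 and 31.5 CPM at 48 h, and its log2 fold change was 0.025 without 48 h replicate 1. Leaving out 1 library gave 3 to 14 calls among the 66 genes, the fewest when 0 h replicate 1 was dropped, then 4 for 48 h replicate 1 and 6 for 0 h replicate 2. Notch4, Dll1, Dll3, Dll4, Rbpj, Lfng, Mfng and Dlk1 were not called in H3K4me3. All of these but Dll1 and Dll4 lay below the 95th percentile of RNA-silent genes, so the lack of a call says little about them.

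Tested genes averaging 5 CPM or more were ordered by how closely their log2 level followed each Notch gene over the 6 RNA libraries. Highest for Notch3 were Slc30a7 and Ptprb (Pearson r = 0.999 and 0.998). For Notch1 it was Ddrgk1, and the pairs were for Nrarp Mfsd13a and Cyb5r3, for Heyl Pabpc4 and Mrto4, for Hey1 Gabarapl1 and Parp8, and for Hes1 Zfp994 and Acrbp. For the genes not called they were Nhsl2 and Sorl1 for Notch2, Slc35d1 and Cx3cr1 for Jag1, Lrrn4 and Vash1 for Jag2, and Trip13 and Nudt2 for Hey2. These values, between 0.982 and 0.999, are the highest of 11290 or 11291 genes over only 6 libraries that also share their time, so they describe these libraries only.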

How the data were processed

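RNA and H3K4me3 levels were taken from 2 tables of whole-number counts per Entrez gene ID that the authors deposited, 1 column per library, and 0 columns of per-sample values were left unused. Per the submitters' processing notes, RNA reads were handled with FastQC 0.11.5, Picard, STAR, kallisto and sleuth, chromatin reads with Trimmomatic, Bowtie2 2.2.9, MACS2 2.2 and ChIPseeker 1.18.0, and the build was mm10. The program that made the counts, its use of strand and the H3K4me3 window were each not given in the sources used here. H3K4me3 columns were assigned to their time by name, and their replicate numbers are those of the column names. Without strand, reads of overlapping genes (0610009E02Rik with 131 RNA counts over Notch1, beside 2704 for Notch1 itself) could be split or shared.

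Each table was fitted in edgeR 4.0.16 (R 4.3.3) with TMM scaling, filterByExpr, glmQLFit and glmQLFTest, with all libraries of that assay and no covariate, and p-values were adjusted over all genes tested. SE is the absolute log2 fold change over the square root of F. Symbols came from RefSeq gene names, looked up by Entrez gene ID, and matched 24742 RNA and 24472 H3K4me3 IDs. The fits were tested on simulated data. For the RNA comparison among 14401 genes, only genes with a mean above 5 CPM were made to differ. Of those made to differ by 1 log2 unit, 91.8% were recovered. Nrarp (mean 2.43 CPM) and Hey1 (4.12 CPM) lie below that level, so this share does not cover them. Nor does it cover Hes1 and Heyl, whose log2 fold changes were smaller than 1 in size. The simulation held no library set apart as 48 h replicate 1 was. The share may therefore be too high for genes such as Notch1 and Notch3. Replicates differed beyond counting noise (chi-square per degree of freedom 1.69 to 38.5), so none was merged. Alternatives were other scaling, no filter, DESeq2 1.42.0, a replicate block and leaving out each library. All members were named, with Notch4, Dll1, Dll3, Dll4, Rbpj, Lfng, Mfng, Dlk1 and up to 6 other pathway genes per direction and assay with the largest called change at a mean of at least 1 CPM, and the 2 genes most like each member, of which 1 is not reported here. Other genes were named as members of a called or untested group. The members, lists and rules were chosen with earlier results of these data known.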

Additional observations from a re-analysis of the deposited data

How the results depend on the processing

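Of the 10 genes, Notch1, Heyl and Nrarp in RNA and Notch1 in H3K4me3 kept their call and direction under every alternative run. With DESeq2 size factors in edgeR, Hes1 in RNA was -0.54 (adjusted p = 0.0623). In DESeq2, Hes1 in RNA was -0.54 (adjusted p = 0.0561), Jag2 in H3K4me3 was 0.44 (adjusted p = 0.149), and H3K4me3 calls numbered 865 over all genes (beside 2062) and 5 among the other pathway genes (beside 11), with 9016 genes given no adjusted p. With library size only, Jag2 in H3K4me3 was 0.39 (adjusted p = 0.106) and 6 other pathway genes were called. No filter on low counts changed no call among the 10 genes.

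With the replicate block, Hes1 and Hey1 in RNA were -0.57 and -0.77 (edgeR adjusted p = 0.107 and 0.0623), Jag2 in H3K4me3 was 0.45 (edgeR adjusted p = 0.0809), and H3K4me3 calls numbered 1280 over all genes and 6 among the other pathway genes. Among the other named pathway genes it ended the calls of Dlk2 in RNA and Dner in H3K4me3. RNA calls numbered 3312 with the block, beside 4585. The study states no pairing of libraries, so the numbers were not taken as pairs. Deviations from the time mean, for libraries with the same number, correlated at -0.22, -0.15 and -0.17 in RNA and -0.05 in H3K4me3. No library correlated best with its own number. Deviations within a time offset each other, and in H3K4me3 every correlation is the same value with or without its sign changed. These correlations therefore cannot settle the pairing.

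Leaving out 1 library at a time gave 2882 to 5345 RNA calls and 282 to 2764 H3K4me3 calls over all genes, the fewest without 0 h replicate 3 and 0 h replicate 1. It gave 3 to 7 RNA and 1 to 4 H3K4me3 calls among the 10 genes and 3 to 14 H3K4me3 calls among the other pathway genes. Log2 fold changes then ran in RNA from 0.82 to 1.86 for Notch3, -0.72 to -0.39 for Hes1, -0.86 to -0.67 for Hey1 and 0.18 to 0.40 for Hey2. In H3K4me3 they ran from 0.34 to 0.56 for Jag2, 0.52 to 0.62 for Nrarp, 0.12 to 0.44 for Notch3 and -0.30 to -0.068 for Heyl. A time left with 1 H3K4me3 library was assumed to vary like the other time. The cause of these changes was not tested, and fewer libraries enter those fits.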

Other observations

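Some pathway genes with RNA had H3K4me3 levels close to those of RNA-silent genes. Averaged over the 4 libraries, the mark was 1.58 CPM at Rbpj, whose RNA averaged 96.0 CPM, 1.35 CPM at Maml2 (RNA 15.0 CPM), 1.19 CPM at Notch4 (RNA 8.10 CPM) and 2.18 CPM at Mfng (RNA 2.60 CPM). The median over RNA-silent genes was 1.56 CPM, and 14 of the 66 pathway genes lay below the 95th percentile of those genes. The share of all genes with RNA below it was not counted. Dll3, Hes2, Hes3, Hes5 and Helt, which did not pass the RNA filter, are among the 14. The window counted around each gene is not known, so a low count does not show that the mark is absent. Rbpj, Maml2, Notch4 and Mfng were chosen after their values were seen.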
